A study of Mus musculus with 84 samples.

Results

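The solute carrier (Slc) genes encode membrane proteins that move small molecules across membranes. All genes printed on a 15k mouse cDNA array under a single symbol beginning with Slc and a family number were taken, except 1 gene that is not reported here. This gave 148 of the 7766 genes with a single symbol, measured by 208 of the array's 15360 clones and spread over 45 families. Members were taken by symbol and not by their values. Of the 148, 104 were represented by 1 clone, 31 by 2 clones, 10 by 3 and 3 by 4, and the clones of a gene were averaged. Despite their symbols 4 members were set apart as not transporters: Slc9a3r1 and Slc9a3r2 are scaffold proteins that bind a sodium/proton exchanger, Slc4a1ap encodes an adaptor protein and Slc6a19os is a transcript from the opposite strand of a transporter gene.

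Solute carriers use the gradient of their substrate, or of an ion moved with it, rather than splitting ATP themselves. Families are named by sequence and mostly share a type of cargo: Slc2 and Slc5 carry sugars, Slc1, Slc7 and Slc38 carry amino acids, Slc25 works in the inner membrane of mitochondria, Slc30 and Slc39 move zinc out of and into the cytosol, and Slc35 brings nucleotide sugars to the Golgi. In the mammary gland such carriers supply the epithelium with glucose, amino acids, phosphate and trace metals for milk, and fat cells around the ducts have carriers of their own for sugars and fatty acids. Growing tumors draw on the same carriers for fuel and building blocks.

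Tissues came from mice in which the mouse mammary tumor virus (MMTV) promoter drives a transgene mainly in mammary epithelium. The groups were lung metastases of MMTV-Wnt-1 mice (WntM, 10 arrays) and of MMTV-Neu mice (NeuM, 3 arrays), mammary tumors of MMTV-Wnt-1 mice aged 9 to 56 weeks (WntT, 23 arrays) and of MMTV-Neu mice aged 32 to 60 weeks (NeuT, 12 arrays), hyperplastic mammary glands of MMTV-Wnt-1 mice aged 9 weeks (WntHMG, 7 arrays), intestinal fat of virgin FVB mice aged 12 weeks (Fat, 3 arrays) and, as the normal tissue, mammary glands of virgin nontransgenic FVB mice aged 9 weeks (VMG, 5 arrays). The ages of the mice with metastases are not given in the sources used here. A further 2 metastases, called tail-vein metastases below, grew in nontransgenic mice injected with MMTV-Neu tumor cells and entered only an alternative. MMTV-Neu and nontransgenic mice were FVB, and MMTV-Wnt-1 mice were mostly FVB with SJL and C57BL/6, so transgene, strain and, in part, age cannot be told apart between the tumor groups. Transgene and strain likewise cannot be told apart wherever a Wnt-1 group is set against VMG or a Neu group. Both tumor groups also included older mice than VMG. The MMTV-Neu line carries a rat cDNA of wild-type Neu, a receptor tyrosine kinase, whereas Wnt-1 is a secreted signal. Samples run on another array are not analysed here. Nothing in the labels says whether arrays of 1 group came from separate mice, so the p-values measure the spread between arrays.

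Each value is the log2 ratio of sample RNA to 1 pooled reference RNA prepared from ovary, liver, spleen, kidney, thymus, pancreas, lung and lactating mammary gland. A ratio of 0 therefore means the same signal as in that mixture, and values compare samples for 1 gene, never the levels of 2 genes. Every tissue was taken whole, so fewer cells of a type and less RNA per cell cannot be told apart. Array medians lay within -0.14 and 0.04. One fat array (number 44) stood apart, with an SD of 2.59 over all clones against 0.67 to 1.78 in the other arrays. Of its clone ratios for members 28 were below 0.01 or above 100. The numbers of members called in fat are therefore also given without it. So are the differences of the genes named as lower in fat than in the tumors. Most other fat values include it. Marker lists moved with the tissues: 17 of 17 measured adipocyte markers were lower in both tumor groups than in VMG (median log2 difference -3.02 in WntT and -3.22 in NeuT, with marker means of -5.27 to 0.02 in WntT, -5.07 to 0.61 in NeuT and 0.24 to 4.66 in VMG). In addition, 7 of 8 myoepithelial markers were higher in WntT than in NeuT (median 1.31; marker means -0.10 to 1.09 in WntT, -2.81 to -0.20 in NeuT). The part of these markers in the Slc results was not tested.

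The first comparison asks how tumors started by the 2 transgenes differ. Between WntT and NeuT, 71 of the 148 members were called (limma, Benjamini-Hochberg adjusted p under 0.05 over all 7766 genes), that is 48% against 45.8% of all genes. Of these, 27 were higher in WntT (18.2% of members against 22.8% of all genes) and 44 were lower (29.7% against 23%). The median log2 difference of the members was -0.15, against -0.03 over all genes. The share called was close to that of the array as a whole. A called difference of over 2-fold was seen in 12 members (8.11%, against 6.44% of all genes). For 13 members (8.78%, against 5.32% of all genes) the ranges of the 2 groups did not overlap.

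Slc25a34, a carrier of the mitochondrial family whose cargo is not settled, showed the greatest difference of any member. Its log2 ratio was -2.23 to 0.28 (median -0.49) in WntT and 2.01 to 4.34 (median 3.63) in NeuT. Every NeuT array lay above every WntT array, with a log2 difference of -3.96 ± 0.22 (SE, adjusted p = 2.99e-17), a 15.6-fold lower ratio in WntT. Slc29a1 encodes ENT1, the equilibrative nucleoside transporter of the plasma membrane. It lay at -0.30 to 0.72 (median 0.03) in WntT and 1.92 to 3.12 (median 2.49) in NeuT, with a log2 difference of -2.42 ± 0.11 (SE, adjusted p = 5.65e-20). The groups were again fully apart, and its 3 clones gave -2.66, -2.44 and -2.15. Slc10a6, a sodium-dependent carrier of sulfated steroids, was at 0.57 to 1.41 (median 1.00) in WntT and 2.08 to 2.91 (median 2.45) in NeuT (log2 difference -1.48 ± 0.09 SE, adjusted p = 2.1e-15).

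A zinc carrier and a proton exchanger showed the opposite pattern, high in WntT. Slc39a10, a zinc importer of the ZIP family, was at 0.37 to 1.74 (median 1.05) in WntT and -0.89 to 0.33 (median -0.43) in NeuT (log2 difference 1.45 ± 0.12 SE, adjusted p = 7.23e-13). Slc9a9, a sodium/proton exchanger of endosomes, was at 0.71 to 1.59 (median 1.03) in WntT and -1.04 to 0.18 (median -0.28) in NeuT (log2 difference 1.35 ± 0.10 SE, adjusted p = 5.18e-14). Neither gene had a WntT array within the NeuT range. Slc2a5, the fructose transporter GLUT5, was also higher in WntT, though with overlap. It was at -1.40 to 0.91 (median -0.11) in WntT and -2.14 to -0.99 (median -1.50) in NeuT (log2 difference 1.41 ± 0.17 SE, adjusted p = 6.54e-09).

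**Figure D1:**
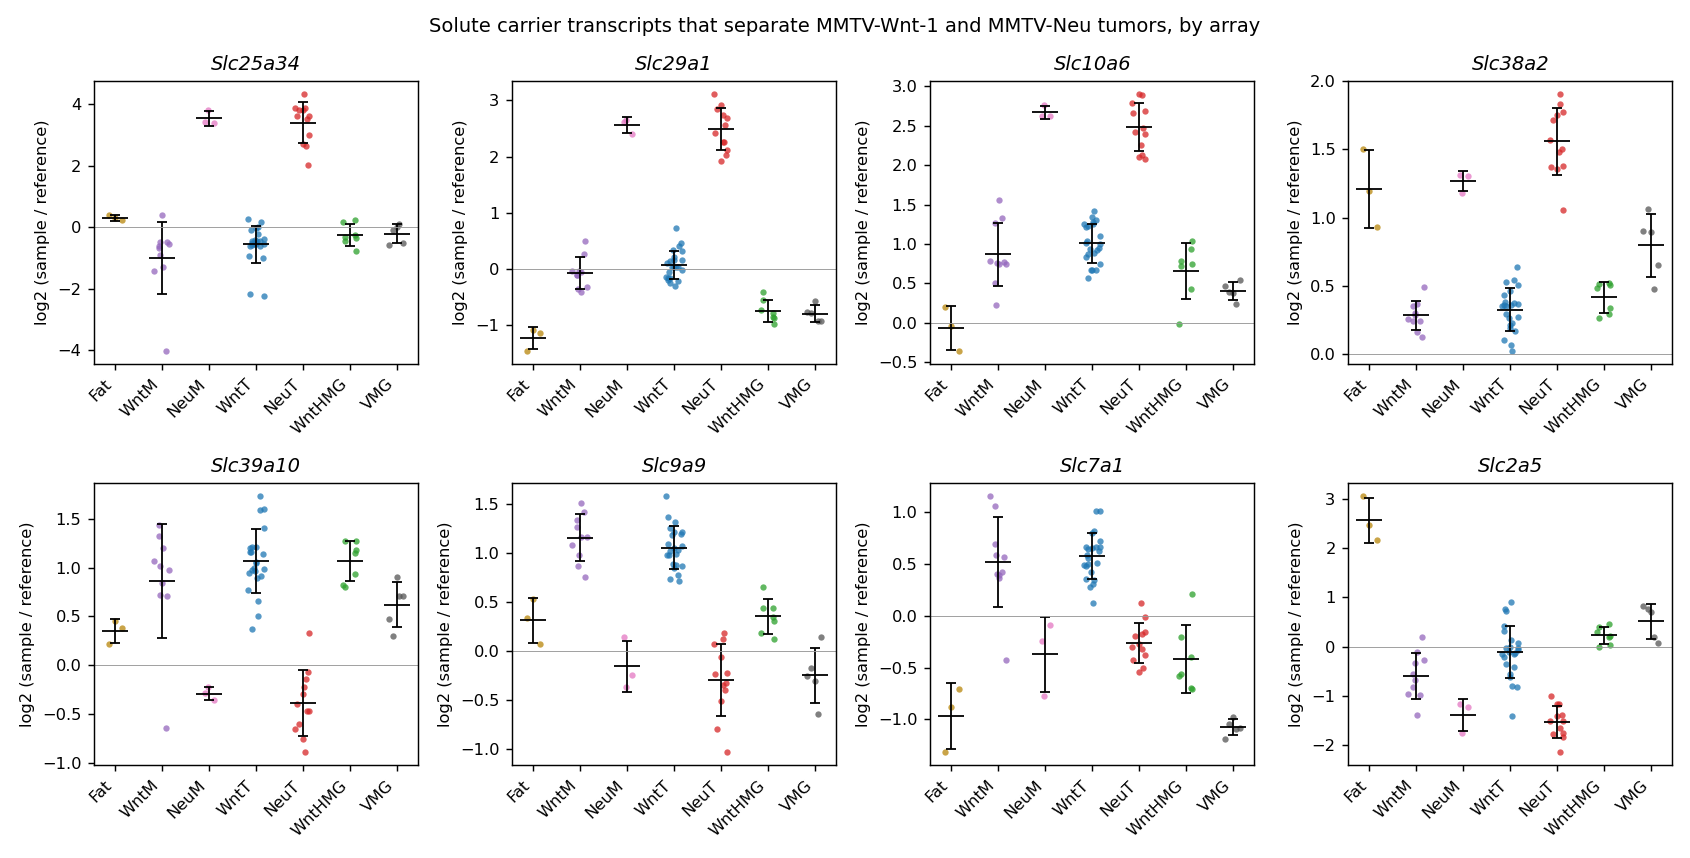
Log2 ratio of sample to pooled reference for 8 Slc genes (vertical axes), with 1 point per array in each group (horizontal axes) and bars for the mean and SD. Slc25a34, Slc29a1, Slc10a6 and Slc38a2 lie higher in NeuT than in WntT and Slc39a10, Slc9a9 and Slc7a1 lower, with no overlap between the tumor groups, while Slc2a5 is at its highest in fat.

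Promoters are shown for the 2 members of greatest difference in each direction among those whose ranges did not overlap, since they head the 2 opposite patterns. The windows run from 250 bases before to 50 bases after the transcription start (RefSeq, GRCm38.p6, 5′ to 3′ in the direction of transcription). Capitals mark a GC box, searched as GGGCGG on both strands; TATAAA and the E-box CACGTG were searched the same way.
Slc25a34: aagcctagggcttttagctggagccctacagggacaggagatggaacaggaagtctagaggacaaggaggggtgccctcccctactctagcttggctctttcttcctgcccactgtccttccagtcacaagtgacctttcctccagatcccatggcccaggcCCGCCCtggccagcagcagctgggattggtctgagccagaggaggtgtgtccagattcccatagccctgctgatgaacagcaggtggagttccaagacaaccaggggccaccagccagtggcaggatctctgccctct
Slc29a1: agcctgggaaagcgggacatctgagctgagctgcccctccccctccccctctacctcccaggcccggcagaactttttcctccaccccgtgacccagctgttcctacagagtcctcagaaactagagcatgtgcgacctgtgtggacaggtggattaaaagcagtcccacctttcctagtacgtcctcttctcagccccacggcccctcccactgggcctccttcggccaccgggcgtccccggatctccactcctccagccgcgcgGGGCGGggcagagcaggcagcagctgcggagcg
Slc39a10: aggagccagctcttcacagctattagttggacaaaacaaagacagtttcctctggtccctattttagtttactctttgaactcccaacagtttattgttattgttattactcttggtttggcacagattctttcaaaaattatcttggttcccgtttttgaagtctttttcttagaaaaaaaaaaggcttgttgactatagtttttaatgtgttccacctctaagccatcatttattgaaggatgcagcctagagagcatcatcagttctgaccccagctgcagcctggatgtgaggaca
Slc9a9: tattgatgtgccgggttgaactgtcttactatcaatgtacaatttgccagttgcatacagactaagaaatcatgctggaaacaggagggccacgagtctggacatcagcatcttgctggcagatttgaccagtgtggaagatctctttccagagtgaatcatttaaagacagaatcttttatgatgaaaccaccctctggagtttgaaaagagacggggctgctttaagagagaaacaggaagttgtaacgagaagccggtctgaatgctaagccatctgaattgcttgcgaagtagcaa
These windows lie at chr4:141623785-141624084 (minus strand), chr17:45599569-45599868 (minus strand, the most upstream of 8 starts), chr1:46925727-46926026 (minus strand, the most upstream of 2 starts) and chr9:94669642-94669941 (plus strand). Slc25a34 and Slc29a1 each held 1 GC box, and in the windows of Slc39a10 and Slc9a9 none of the 3 letter strings was found. RefSeq windows were at hand for 123 members (170 windows), of which 62.9% held GGGCGG, 5.88% TATAAA and 14.1% CACGTG, against 35.7%, 13.6% and 7.15% of all 32851 windows. The full set covers 27025 genes and is not limited to genes on the array, so these shares are not read as particular to Slc genes. Among windows of members called lower in WntT than NeuT 71.7% held GGGCGG, and among those called higher 59.4%. These matches describe the letters in the windows and were not set against the array values by any test.

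Substrate groups here and below were set by family number and not by the cargo of each member. Some members therefore carry something else or, like Slc3a2, are partners of carriers. Amino acid carriers split in both directions between the tumor groups: of 22 measured, 7 were higher in WntT and 6 lower, against 22.8% and 23% of all genes. Slc38a2 encodes SNAT2, which takes up small neutral amino acids with sodium. It was at 0.02 to 0.64 (median 0.35) in WntT and 1.05 to 1.91 (median 1.54) in NeuT, without overlap (log2 difference -1.23 ± 0.07 SE, adjusted p = 7.61e-17). Slc7a1, which encodes CAT-1, the carrier of arginine and lysine, ran the other way at 0.12 to 1.01 (median 0.58) in WntT and -0.54 to 0.12 (median -0.29) in NeuT (log2 difference 0.84 ± 0.08 SE, adjusted p = 1.83e-11), and its 2 clones each gave 0.84. Slc38a7, a lysosomal glutamine carrier, also stood apart at 0.13 to 0.69 (median 0.38) in WntT and -0.55 to -0.09 (median -0.30) in NeuT (log2 difference 0.68 ± 0.05 SE, adjusted p = 9.72e-14). It was added here after its values were seen, because its ranges did not overlap. Slc3a2, the CD98 heavy chain that brings several Slc7 carriers to the cell surface, was higher in WntT by 0.61 ± 0.10 (SE, adjusted p = 2.73e-06), and Slc38a4 (SNAT4) by 0.88 ± 0.23 (SE, adjusted p = 0.00179). With all groups in 1 fit the call of Slc38a4 was lost (adjusted p = 0.0593). That fit pools the spread of all groups, and the SD of Slc38a4 over the fat arrays was 3.75. The part of the fat arrays in the lost call was not tested.

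Among mitochondrial carriers 8 of 22 were lower in WntT and 1 higher, against 23% and 22.8% of all genes. The higher one was Slc25a13, the aspartate/glutamate carrier citrin (0.40 ± 0.09 SE, adjusted p = 0.000242, adjusted p = 0.308 with all groups in 1 fit). That fit took in the fat arrays, over which the SD of Slc25a13 was 3.85, and their part in the lost call was not tested. Slc25a11, the oxoglutarate carrier, was at -0.09 to 0.35 (median 0.13) in WntT and 0.49 to 1.08 (median 0.69) in NeuT, fully apart (log2 difference -0.55 ± 0.05 SE, adjusted p = 7.31e-12). Slc25a1, the citrate carrier that supplies acetyl groups for fatty acid synthesis, averaged -0.39 ± 0.20 in WntT and 0.67 ± 0.18 in NeuT (SD, n = 23 and 12; difference -1.07 ± 0.07 SE, adjusted p = 5.82e-15). Its 3 clones disagreed in size, however, at -2.66, -0.39 and -0.15, and with the median of the clones the call was lost (log2 difference -0.17, adjusted p = 0.308).

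The group of nucleotide sugars and acetyl-CoA numbered 13 with its orphan members. Of these 7 were lower in WntT, 1 was higher and 5 were not called (median -0.34), against 23% lower and 22.8% higher among all genes. Slc35b2, which carries the sulfate donor of glycan sulfation, was lower (log2 difference -0.65 ± 0.11 SE, adjusted p = 6.4e-06) and Slc35f5, an orphan of the family, by -0.55 ± 0.07 (SE, adjusted p = 4.46e-08). All 3 called nucleoside carriers of 5 measured were lower: besides Slc29a1 these were Slc28a3, a sodium-coupled nucleoside carrier (-0.95 ± 0.19 SE, adjusted p = 6.57e-05), and Slc29a3, which works in lysosomes (-0.31 ± 0.09 SE, adjusted p = 0.00604; adjusted p = 0.26 after quantile normalization). Of 11 carriers of vitamins, choline and amines 6 were lower and 1 higher. They included Slc46a3, a lysosomal protein, at -2.35 to -0.41 (median -0.78) in WntT and -0.06 to 0.65 (median 0.28) in NeuT (log2 difference -1.19 ± 0.14 SE, adjusted p = 1.41e-08), and Slc44a3, a relative of choline carriers (-0.81 ± 0.09 SE, adjusted p = 1.47e-09). For fatty acids 2 of 5 were lower, among them Slc27a4, the fatty acid transport protein FATP4, at -0.65 to 0.48 (median 0.04) in WntT and 0.93 to 1.83 (median 1.24) in NeuT (log2 difference -1.23 ± 0.09 SE, adjusted p = 1.99e-13).

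Metal carriers were mixed, with 4 of 17 higher in WntT and 3 lower, against 22.8% and 23% of all genes. The copper protein Slc31a2 (CTR2) was at -0.07 to 0.49 (median 0.18) in WntT and 0.90 to 1.97 (median 1.53) in NeuT (log2 difference -1.28 ± 0.09 SE, adjusted p = 1.5e-14), fully apart, whereas the main copper importer Slc31a1 (CTR1) was not called (-0.14 ± 0.08 SE, adjusted p = 0.172). Of the zinc exporters Slc30a1 was higher in WntT by 0.35 ± 0.10 (SE, adjusted p = 0.00442). The group of sugar families was called 3 higher and 3 lower of 12 and the phosphate and sulfate group 2 and 2 of 7. That second group holds Slc17a9, which loads ATP into vesicles, while Slc26 members are counted with the exchangers of bicarbonate, protons and anions. In the group of monocarboxylates and dicarboxylates 2 of 4 were higher, Slc13a3 (a sodium-coupled dicarboxylate carrier, 1.10 ± 0.22 SE, adjusted p = 6.54e-05) and Slc16a12 (a creatine carrier, 0.86 ± 0.19 SE, adjusted p = 0.000333). These counts describe the substrate groups, and each is small. For transport genes outside the Slc families, 4 of 20 measured ABC transporters were higher in WntT and 4 lower, and of 8 partners and regulators of transporters 4 were lower, among them Srebf1, a master regulator of lipid synthesis (-2.43), and Stk39, a kinase that controls chloride cotransport (-1.97).

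**Figure D2:**
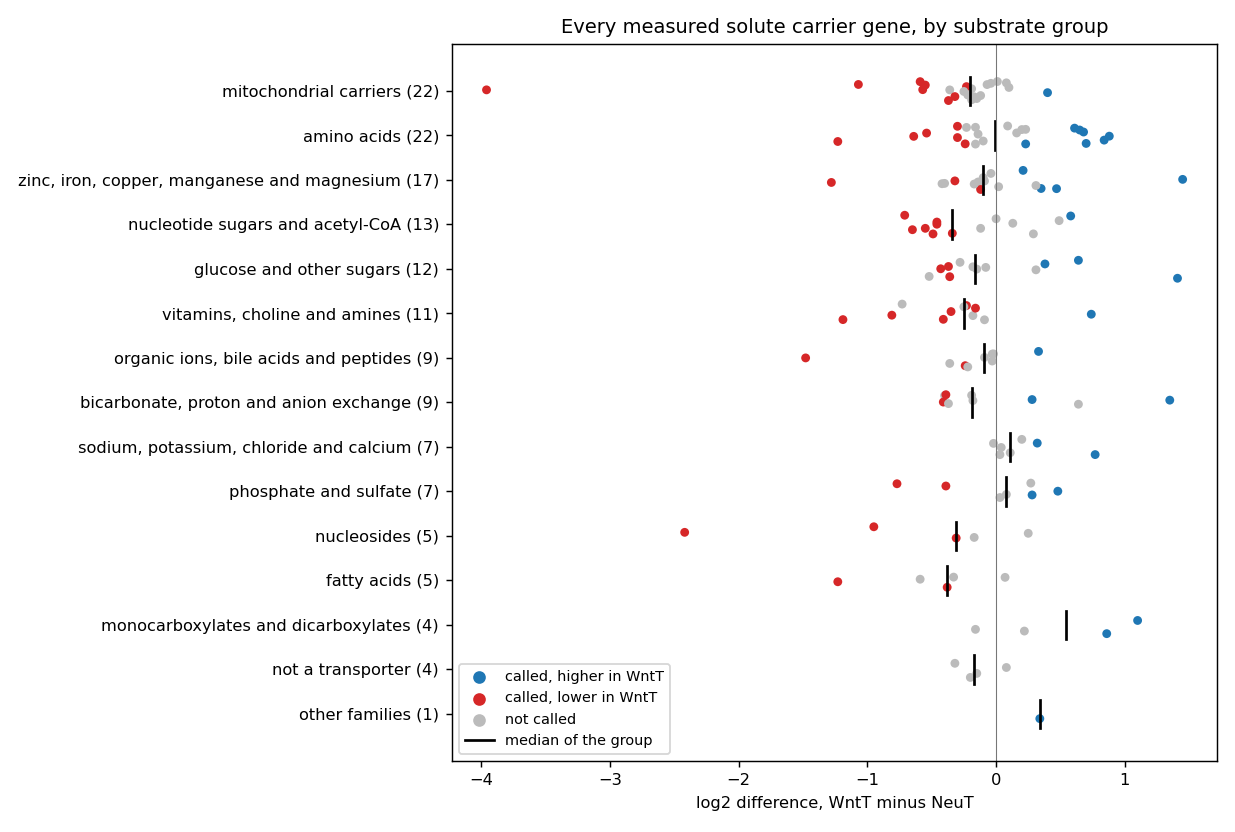
Log2 difference between WntT and NeuT (horizontal axis, positive where WntT is higher) for each of the 148 Slc genes, sorted into substrate groups (vertical axis, number of genes in brackets). Colored points were called, grey ones were not, and bars mark the group medians; the farthest point is Slc25a34 at -3.96 and the highest Slc39a10 at 1.45.

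The second comparison sets hyperplastic glands of MMTV-Wnt-1 mice against virgin nontransgenic glands, groups that also differ in strain. Between WntHMG and VMG, 37 members were called (25%, against 23.8% of all genes), 12 higher (8.11% against 9.58%) and 25 lower (16.9% against 14.3%) in WntHMG. For 15 members (10.1%, against 12.5% of all genes) the groups did not overlap, and 4 members (2.7%, against 3.5%) differed by over 2-fold. Adipocyte markers were lower too, 16 of 17, with a median of -1.30, as were 7 of 12 endothelial markers (median -0.65), while 4 of 8 luminal epithelial markers were higher (median 0.58). Their part in the Slc results was not tested. Slc1a5 encodes ASCT2, a sodium-dependent exchanger of glutamine and other neutral amino acids. It was at 0.13 to 0.65 (median 0.23) in WntHMG, against 1.05, 1.12, 1.62, 1.67 and 1.70 in VMG (log2 difference -1.12 ± 0.15 SE, adjusted p = 0.000226), and its 3 clones gave -1.29, -1.20 and -0.87. The groups were fully apart. Slc25a13 ran the other way, at -0.89 to -0.18 (median -0.56) in WntHMG, against -1.72, -1.67, -1.59, -1.53 and -1.22 in VMG (log2 difference 1.00 ± 0.12 SE, adjusted p = 0.000162).

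Slc7a1 was at -0.70 to 0.21 (median -0.56) in WntHMG and -1.19, -1.09, -1.08, -1.05 and -0.97 in VMG, also without overlap (log2 difference 0.66 ± 0.14 SE, adjusted p = 0.00499). Other members higher in WntHMG were Slc9a9 (0.60), the sodium/glucose cotransporter Slc5a1 (0.58) and Slc17a9, which loads ATP into vesicles (0.55), the last of which lost its call without VMG 27 or 28 (adjusted p = 0.058 and 0.0542). Members lower in WntHMG included genes far below the reference in every gland. Slc27a2, the fatty acid transport protein FATP2 of liver and kidney, was at -6.22 to -4.66 (median -5.35) in WntHMG and -4.73, -4.66, -3.47, -3.31 and -3.11 in VMG (log2 difference -1.53 ± 0.32 SE, adjusted p = 0.00374). Slc2a2, the liver glucose transporter GLUT2, differed by -1.37 ± 0.30 (SE, adjusted p = 0.00505), and Slc17a3, of the phosphate group, by -0.92 ± 0.22 (SE, adjusted p = 0.00852). Slc8a1, the sodium/calcium exchanger of heart and muscle, was at -2.31 to -0.80 (median -1.18) in WntHMG and -0.63, -0.55, -0.25, -0.19 and -0.16 in VMG, with no overlap (log2 difference -0.94 ± 0.21 SE, adjusted p = 0.00607). With all groups in 1 fit 19 members were called, a count given without the share of all genes. Slc2a2, Slc8a1, Slc5a1 and Slc25a13 were not among them (adjusted p = 0.449, 0.0579, 0.461 and 0.189). That fit pools the spread of all groups. Over the fat arrays the SD was 3.72 for Slc2a2, 3.55 for Slc5a1 and 3.85 for Slc25a13, against 0.05 for Slc8a1. The part of the fat arrays in the lost calls was not tested.

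From hyperplastic gland to tumor, 61 members were called between WntT and WntHMG (41.2%, against 44.1% of all genes), 23 higher (15.5% against 21.9%) and 38 lower (25.7% against 22.2%) in WntT. After quantile normalization this became 33 higher (22.3%, against 26.8% of all genes) and 34 lower (23%, against 21.6%). The ranges of 11 members (7.43%, against 8.14%) did not overlap, and 5 (3.38%, against 6.84%) differed by over 2-fold. The highest-ranking changes included genes of amino acid uptake. Slc3a2 was at -0.03 to 1.13 (median 0.56) in WntT and -1.01 to -0.23 (median -0.68) in WntHMG (log2 difference 1.20 ± 0.12 SE, adjusted p = 1.17e-09), with no overlap. Slc7a1 was at 0.12 to 1.01 (median 0.58) in WntT, against the values given above for WntHMG (log2 difference 0.99 ± 0.11 SE, adjusted p = 5.97e-09). Yet of the 22 members of the amino acid group only these 2 were higher and 8 were lower, including Slc1a5 (-0.63 ± 0.06 SE, adjusted p = 1.89e-09) and Slc38a4 (-1.17 ± 0.30 SE, adjusted p = 0.00172).

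Slc39a4, the zinc importer ZIP4, was at -1.28 to 0.10 (median -0.54) in WntT and -2.06 to -1.32 (median -1.69) in WntHMG (log2 difference 1.20 ± 0.14 SE, adjusted p = 3.21e-08), but this came from 1 of its 2 clones (2.49 against -0.09). The chloride/bicarbonate exchanger Slc4a2 (AE2) was at -0.24 to 0.37 (median -0.02) in WntT and -1.14 to -0.67 (median -0.98) in WntHMG, fully apart (log2 difference 0.95 ± 0.08 SE, adjusted p = 1.11e-11). Slc34a2, the sodium/phosphate cotransporter of lung and lactating mammary epithelium, was at 0.51 to 1.67 (median 1.02) in WntT and -0.46 to 0.35 (median 0.29) in WntHMG (log2 difference 0.88 ± 0.12 SE, adjusted p = 6.49e-07). The scaffold Slc9a3r1 (NHERF1) was higher as well (0.94 ± 0.18 SE, adjusted p = 6.28e-05). Lower in WntT were Slc22a4, a carrier of ergothioneine (-1.24 ± 0.27 SE, adjusted p = 0.000302), Slc17a2 (-1.19 ± 0.19 SE, adjusted p = 4.06e-06), Slc16a12 (-0.87 ± 0.20 SE, adjusted p = 0.000718, adjusted p = 0.0799 with all groups in 1 fit) and Slc24a3, a potassium-dependent sodium/calcium exchanger (-0.85 ± 0.21 SE, adjusted p = 0.00151). Slc22a5, the carnitine carrier OCTN2, was lower (log2 difference -0.77 ± 0.07 SE, adjusted p = 2.49e-10), with every WntT array below every WntHMG array. All 9 skeletal muscle markers (median -2.43) and 16 of 17 adipocyte markers (median -1.80) were lower in WntT as well.

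Both tumor groups were then set against the virgin gland. The 2 comparisons share the 5 VMG arrays, so their values are given side by side and not as independent support. NeuT differed from VMG in 84 members (56.8%, against 55.6% of all genes), 38 higher (25.7% against 26.8%) and 46 lower (31.1% against 28.8%). WntT differed from VMG in 74 (50%, against 52.4%), 29 higher (19.6% against 26%) and 45 lower (30.4% against 26.5%). Ranges did not overlap for 50 members in the first (33.8%, against 27.7%) and for 30 in the second (20.3%, against 20.4%). Called differences of over 2-fold numbered 36 in NeuT (24.3%, against 17.8%) and 21 in WntT (14.2%, against 13.6%).

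Slc25a34 was at 2.01 to 4.34 (median 3.63) in NeuT, -2.23 to 0.28 (median -0.49) in WntT and -0.58, -0.50, -0.08, 0.01 and 0.11 in VMG. The difference from VMG was 3.61 ± 0.30 (SE, adjusted p = 9.91e-09) in NeuT and -0.35 ± 0.27 (SE, adjusted p = 0.296) in WntT, so every NeuT array lay above every VMG array, while the WntT range took in that of VMG. Slc29a1 was at 1.92 to 3.12 (median 2.49) in NeuT, -0.30 to 0.72 (median 0.03) in WntT and -0.93, -0.93, -0.78, -0.77 and -0.57 in VMG, higher in both tumor groups by 3.29 ± 0.17 (SE, adjusted p = 2.67e-11) in NeuT and 0.87 ± 0.12 (SE, adjusted p = 4.25e-07) in WntT. Both tumor groups stood clear of VMG. Slc10a6 was at 2.08 to 2.91 (median 2.45) in NeuT, 0.57 to 1.41 (median 1.00) in WntT and 0.23, 0.37, 0.39, 0.46 and 0.54 in VMG, and it too was higher in both, by 2.08 ± 0.14 (SE, adjusted p = 5.97e-10) in NeuT and 0.61 ± 0.11 (SE, adjusted p = 5.49e-05) in WntT. Slc20a1, the phosphate carrier PiT-1, was at 0.35 to 1.14 (median 0.63) in NeuT, -1.73 to 0.57 (median -0.08) in WntT and -1.32, -1.20, -1.16, -1.10 and -1.0 in VMG. It was higher by 1.80 ± 0.10 (SE, adjusted p = 1.08e-10) in NeuT and 1.02 ± 0.23 (SE, adjusted p = 0.000389) in WntT, and the WntT arrays alone overlapped VMG.

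Slc39a4 was at -0.95 to 0.00 (median -0.29) in NeuT, -1.28 to 0.10 (median -0.54) in WntT and -2.32, -2.29, -2.27, -2.22 and -1.99 in VMG. It was higher by 1.80 ± 0.15 (SE, adjusted p = 9.69e-09) in NeuT and 1.71 ± 0.16 (SE, adjusted p = 2.54e-10) in WntT, with both tumor groups above every VMG array, again through 1 clone (3.37 and 3.30, against 0.22 and 0.12 for the other). Slc7a1 was higher by 0.81 ± 0.10 (SE, adjusted p = 1.25e-06) in NeuT and 1.65 ± 0.10 (SE, adjusted p = 6.65e-14) in WntT, and both tumor groups were above all VMG arrays. Slc9a9 was higher in WntT (1.3 ± 0.11 SE, adjusted p = 8.17e-11) and was not called in NeuT (-0.05 ± 0.18 SE, adjusted p = 0.824), against -0.64, -0.31, -0.25, -0.17 and 0.14 in VMG. Slc39a10 was higher in WntT (0.44 ± 0.15 SE, adjusted p = 0.0159) and lower in NeuT (-1.0 ± 0.16 SE, adjusted p = 3.59e-05) than the VMG values of 0.30, 0.47, 0.71, 0.71 and 0.90. Slc38a2 was split the other way, higher in NeuT (0.76 ± 0.13 SE, adjusted p = 7.07e-05) and lower in WntT (-0.47 ± 0.09 SE, adjusted p = 3.94e-05) than the VMG values of 0.48, 0.66, 0.89, 0.90 and 1.06. Without VMG 28 the WntT call of Slc39a10 was lost (0.37, adjusted p = 0.0737). The direct test of WntT against NeuT was given above for each of these genes.

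Slc1a5 lay at -0.69 to -0.36 (median -0.55) in NeuT and -0.65 to -0.16 (median -0.29) in WntT, below the VMG values given above in every array. The log2 difference was -1.99 ± 0.10 (SE, adjusted p = 2.91e-11) in NeuT and -1.75 ± 0.08 (SE, adjusted p = 1.18e-16) in WntT. Slc2a5 was at -2.14 to -0.99 (median -1.50) in NeuT, -1.40 to 0.91 (median -0.11) in WntT and 0.08, 0.20, 0.70, 0.77 and 0.82 in VMG. It differed by -2.03 ± 0.17 (SE, adjusted p = 1.27e-08) in NeuT, with every NeuT array below every VMG array, and by -0.62 ± 0.24 (SE, adjusted p = 0.0339) in WntT. The WntT call was lost with arrays centered on their medians (adjusted p = 0.0554) and without VMG 27, 28 or 29 (adjusted p = 0.0837, 0.0929 and 0.101). Slc38a4 differed by -2.27 ± 0.16 (SE, adjusted p = 1.06e-09) in NeuT and -1.39 ± 0.35 (SE, adjusted p = 0.00134) in WntT. Slc13a3 differed by -2.12 ± 0.26 (SE, adjusted p = 1.44e-06) in NeuT and -1.02 ± 0.30 (SE, adjusted p = 0.00547) in WntT, where quantile normalization gave -0.40 (adjusted p = 0.198). Slc24a3 was at -1.60 to -0.21 (median -0.79) in NeuT, -2.19 to 0.16 (median -0.77) in WntT and 0.47, 0.48, 0.89, 1.01 and 1.09 in VMG, below all VMG arrays in both tumor groups, with a difference of -1.53 ± 0.20 (SE, adjusted p = 3.46e-06) in NeuT and -1.49 ± 0.26 (SE, adjusted p = 1.37e-05) in WntT. Slc6a18, a glycine carrier of kidney, lay at -3.58 to -2.75 (median -3.23) in NeuT, -8.59 to -1.40 (median -2.98) in WntT and -1.49, -1.44, -1.23, -1.12 and -1.05 in VMG, with a difference of -1.92 ± 0.13 (SE, adjusted p = 5.05e-10) in NeuT and -1.84 ± 0.75 (SE, adjusted p = 0.0402) in WntT. The WntT call of Slc6a18 was lost without any 1 of the 5 VMG arrays (adjusted p = 0.0631 to 0.0801). For Slc27a2 the difference was -2.41 ± 0.49 (SE, adjusted p = 0.000138) in WntT and -1.82 ± 0.36 (SE, adjusted p = 0.000311) in NeuT, where quantile normalization ended the call (adjusted p = 0.0581).

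By substrate, 6 amino acid carriers of 22 were higher in NeuT than in VMG and 8 lower, against 5 higher and 9 lower in WntT. Among all genes 26.8% were higher and 28.8% lower in NeuT, and 26% and 26.5% in WntT. Of the 22 mitochondrial carriers 5 were higher and 8 lower in NeuT, and 1 was higher and 8 lower in WntT. Of 5 nucleoside carriers 3 were higher in NeuT and 1 lower. Further members higher in both tumor groups were Slc5a1 (1.53 ± 0.17 SE, adjusted p = 5.69e-07 in NeuT, 1.10 ± 0.17 SE, adjusted p = 3.37e-06 in WntT), and the lung and mammary phosphate carrier Slc34a2, by 1.02 ± 0.17 (SE, adjusted p = 5.19e-05) in NeuT and 1.3 ± 0.15 (SE, adjusted p = 3.93e-08) in WntT. Slc27a4 was higher in NeuT (1.66 ± 0.13 SE, adjusted p = 4.82e-09), with a WntT difference of 0.43 ± 0.12 (SE, adjusted p = 0.00356). Slc31a2 was higher by 1.47 ± 0.18 (SE, adjusted p = 1.13e-06) in NeuT. All 17 adipocyte markers were lower in each tumor group, as were 7 of 9 skeletal muscle markers in NeuT (median -2.60) and 9 of 9 in WntT (median -2.65). Luminal epithelial markers were higher in 5 of 8 in NeuT and lower in 3, and higher in 6 of 8 in WntT.

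Several transporters of other cargoes were lower in both tumor groups than in VMG. Slc16a10, a carrier of aromatic amino acids that is counted by its family with the monocarboxylates, was at -2.03 to -1.37 (median -1.58) in NeuT, -2.56 to -0.90 (median -1.24) in WntT and -0.35, -0.28, -0.27, -0.26 and -0.18 in VMG, with no overlap and a difference of -1.37 ± 0.10 (SE, adjusted p = 1.26e-09) in NeuT and -1.15 ± 0.21 (SE, adjusted p = 3.9e-05) in WntT. It was also lower in WntHMG than in VMG (-0.36 ± 0.07 SE, adjusted p = 0.00301, adjusted p = 0.486 with all groups in 1 fit). Slc26a6, an exchanger of chloride, oxalate and bicarbonate, was at -0.95 to -0.12 (median -0.50) in NeuT, -0.57 to 0.11 (median -0.27) in WntT and 0.47, 0.70, 0.81, 0.91 and 0.97 in VMG, again fully apart, and differed by -1.29 ± 0.13 (SE, adjusted p = 9.54e-08) in NeuT and -1.01 ± 0.09 (SE, adjusted p = 1.23e-10) in WntT. Slc44a1, a choline transporter, differed by -0.72 ± 0.17 (SE, adjusted p = 0.00183) in NeuT and -1.07 ± 0.12 (SE, adjusted p = 8.82e-09) in WntT, and Slc33a1, which brings acetyl-CoA into the endoplasmic reticulum, by -0.54 ± 0.13 (SE, adjusted p = 0.0016) in NeuT and -1.0 ± 0.10 (SE, adjusted p = 1.45e-09) in WntT. Slc5a6, a carrier of biotin and pantothenate counted here with its sugar-carrying family, differed by -1.08 ± 0.16 (SE, adjusted p = 1.92e-05) in NeuT and -0.70 ± 0.16 (SE, adjusted p = 0.000483) in WntT. Slc17a3, a kidney and liver member of the phosphate group, differed by -1.72 ± 0.22 (SE, adjusted p = 2.61e-06) in NeuT, and the WntT difference was not called (adjusted p = 0.0689). Slc25a13 was higher by 1.27 ± 0.13 (SE, adjusted p = 2.29e-09) in WntT and 0.87 ± 0.10 (SE, adjusted p = 8.28e-07) in NeuT, where the call was lost with all groups in 1 fit (adjusted p = 0.113). That fit again took in the fat arrays, over which the SD was 3.85 for Slc25a13. It was 0.11 for Slc16a10, whose call in WntHMG was lost in the same fit. The part of the fat arrays in these lost calls was not tested. Slc66a1, a lysosomal exporter of cationic amino acids, was lower in NeuT than in VMG (-0.44 ± 0.17 SE, adjusted p = 0.0363).

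Agreement between clones varied. Of the 44 members with more than 1 clone none had clones called in opposite directions in WntT against NeuT, but 2 did in NeuT against VMG (Slc25a1 and Slc7a6), 5 in WntT against VMG, 2 in WntHMG against VMG, 1 in WntT against WntHMG and 6 in fat against the tumors. There were 0 in the comparisons of metastases and in fat against VMG. Slc25a1 is the plainest case: in NeuT against VMG its clones gave 4.69, -0.32 and -1.21. For such genes the average has no single direction behind it, and for those with 1 clone no such check exists.

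**Figure D3:**
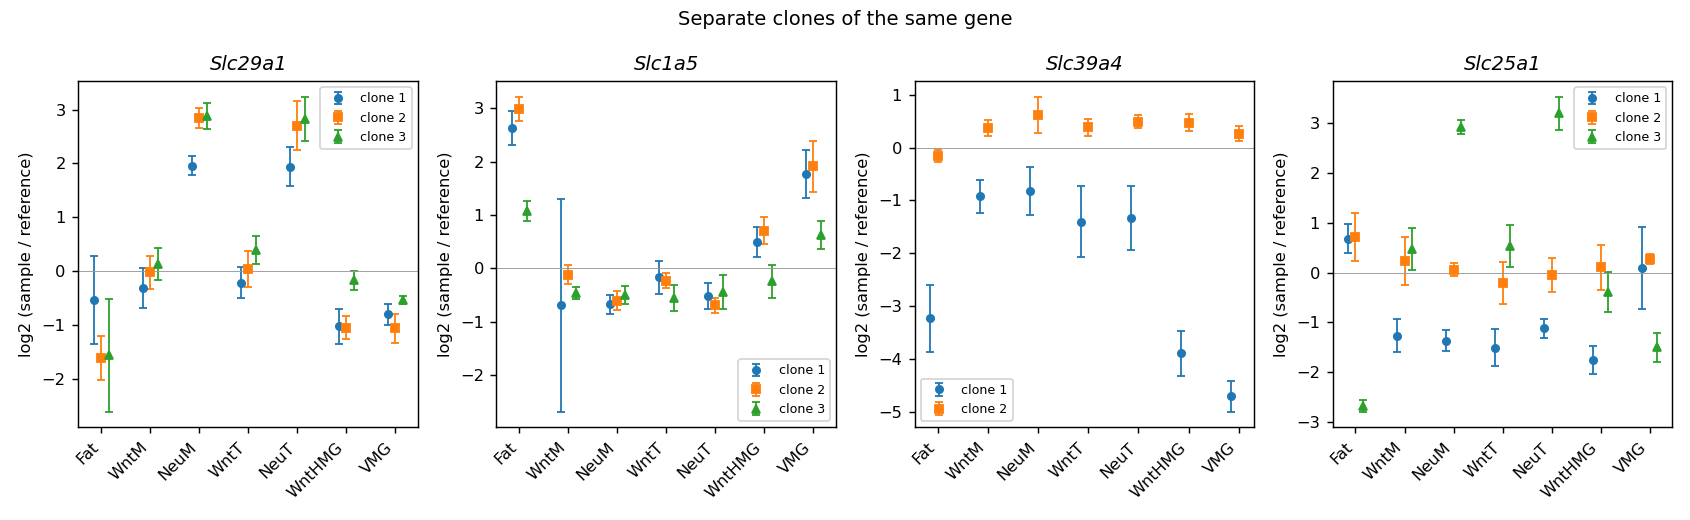
Mean and SD of the log2 ratio (vertical axes) in each group (horizontal axes) for the separate clones of Slc29a1, Slc1a5, Slc39a4 and Slc25a1. All clones of Slc29a1 are highest in NeuM and NeuT, and all clones of Slc1a5 are highest in fat and next highest in VMG. Smaller steps differ between clones. Clone 1 of Slc29a1 is higher in fat than in VMG, where clones 2 and 3 are lower. Clone 3 of Slc1a5 is higher in NeuT than in WntT, where clones 1 and 2 are lower. Clone 1 of Slc1a5 spreads widely in WntM (SD 2.0). Clone 1 of Slc39a4 and clone 3 of Slc25a1 instead part from the other clones of their genes. Their log2 differences were 3.37 and 4.69 between NeuT and VMG where the others gave 0.22 (Slc39a4) and -0.32 and -1.21 (Slc25a1).

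Metastases in the lung were compared with the primary tumors of the same transgene. Between WntM and WntT 7 members were called (4.73%, against 5.46% of all genes), 5 higher (3.38% against 2.88%) and 2 lower (1.35% against 2.58%), and no member had ranges without overlap (0.27% of all genes did). Of the 7, 1 gene, Slc4a5, differed by over 2-fold (0.676% of members, against 1.36%). Lung epithelium markers differed far more, 6 of 7 being higher in WntM with a median of 3.74 (marker means -1.40 to 1.48 in WntM, -6.83 to -0.48 in WntT). The member with the greatest change was Slc4a5, a sodium bicarbonate cotransporter, at -0.82 to 1.06 (median -0.12) in WntM and -6.91 to -0.14 (median -1.27) in WntT (log2 difference 1.83 ± 0.54 SE, adjusted p = 0.0411). The others were Slc9a3r2 (0.45 ± 0.10 SE, adjusted p = 0.00247), Slc31a1 (0.33 ± 0.08 SE, adjusted p = 0.0139), Slc44a2, a choline-like transporter (0.29 ± 0.06 SE, adjusted p = 0.00311), and Slc7a6, a carrier of cationic amino acids (0.20 ± 0.06 SE, adjusted p = 0.0424), all higher. Slc30a1 (-0.41 ± 0.12 SE, adjusted p = 0.0347) and the orphan Slc35e3 (-0.17 ± 0.05 SE, adjusted p = 0.0194) were lower. Without the 5 arrays of SD over 1.3 (WntM 19, 50 and 52, WntT 42 and 49) Slc4a5 alone was still called, and 3 members had all their clones called 1 way when each clone was fitted by itself. Both counts stand without the share of all genes.

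Slc34a2, which lung epithelium also expresses, was at 0.44 to 2.02 (median 1.09) in WntM and 0.51 to 1.67 (median 1.02) in WntT and was not called (0.23 ± 0.13 SE, adjusted p = 0.327). Between NeuM and NeuT no member was called (0.155% of all genes were, 0.116% at over 2-fold); 9 had an unadjusted p under 0.05 in limma, and the permutation t-test at P under 0.001 called 0. Slc27a4 lay at -0.08, 0.41 and 0.90 in NeuM and 0.93 to 1.83 (median 1.24) in NeuT (log2 difference -0.87 ± 0.19 SE, adjusted p = 0.12) and was the only member whose ranges did not overlap (0.676% of members, 0.94% of all genes). Without NeuM 53 the number called was 1, given without the share of all genes. Of 7 lung epithelium markers 4 were higher in NeuM than in NeuT (median 2.09), and their part in the Slc values was not tested. Only 3 NeuM arrays limit the precision here. The difference between the 2 metastasis contrasts was tested directly and no member was called (0.0515% of all genes were), with 14 at an unadjusted p under 0.05.

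Between the metastases themselves, WntM and NeuM, 25 members were called (16.9%, against 16.6% of all genes), 8 higher (5.41% against 7.53%) and 17 lower (11.5% against 9.07%) in WntM, and 22 did not overlap (14.9%, against 14.9%). Over 2-fold differences numbered 5 (3.38%, against 4.94%). These arrays are not those of the tumor comparison, although metastases and tumors may stem from the same mice. All 17 members called lower here were also called lower in WntT than in NeuT, where they make up 38.6% of the 44, while among all genes 640 of the 704 called lower here (90.9%) were also called lower there, 35.8% of 1788. Of the 8 called higher 6 (75%) were also higher in WntT than in NeuT, where they are 22.2% of the 27, against 520 of 585 (88.9%, and 29.4% of 1767) among all genes. No member was called in opposite directions, and 2 of all genes were. Slc25a34 was at -4.02 to 0.39 (median -0.65) in WntM, against 3.39, 3.42 and 3.82 in NeuM (log2 difference -4.54 ± 0.65 SE, adjusted p = 0.000401). Slc29a1 was at -0.42 to 0.50 (median -0.08) in WntM and 2.41, 2.62 and 2.66 in NeuM (log2 difference -2.63 ± 0.17 SE, adjusted p = 7.66e-07). Slc10a6 was at 0.23 to 1.55 (median 0.77) in WntM and 2.62, 2.62 and 2.77 in NeuM (log2 difference -1.80 ± 0.23 SE, adjusted p = 0.000174). All 3 were fully apart. Slc38a2 (-0.98 ± 0.09 SE, adjusted p = 8.97e-06) and Slc28a3 (-0.97 ± 0.23 SE, adjusted p = 0.0123) were lower too, and the call of Slc28a3 was lost without NeuM 53 (adjusted p = 0.0862) and with the tail-vein metastases (adjusted p = 0.52).

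Slc9a9 was higher, at 0.76 to 1.52 (median 1.16) in WntM and -0.36, -0.24 and 0.14 in NeuM (log2 difference 1.31 ± 0.16 SE, adjusted p = 0.000137), as were Slc39a10 (1.16 ± 0.33 SE, adjusted p = 0.0283), Slc7a1 (0.89 ± 0.26 SE, adjusted p = 0.0358), Slc12a8 (0.79 ± 0.13 SE, adjusted p = 0.00111) and the dicarboxylate carrier Slc25a10 (0.63 ± 0.17 SE, adjusted p = 0.0213). Myoepithelial markers were again higher, 7 of 8 with a median of 1.38. Lung epithelium markers had a median of 1.37, with 1 of 7 called higher (marker means -1.40 to 1.48 in WntM, -3.02 to 0.05 in NeuM). Of 12 endothelial markers 4 were higher in WntM (median 0.32). The part of these markers in the Slc results was not tested. Adding the 2 tail-vein metastases to NeuM raised the number of members called to 39, and leaving out NeuM 53 or NeuM 61 lowered it to 14. These numbers stand without the share of all genes and are not read as particular to Slc genes. The calls of Slc39a10, Slc7a1 and Slc25a10 were lost without any 1 of the NeuM arrays (adjusted p = 0.0804 to 0.0985, 0.0593 to 0.203 and 0.0629 to 0.0846).

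Fat was profiled as a tissue of its own. Against VMG, 10 members were called in fat (6.76%, against 7.49% of all genes), 5 higher (3.38% against 4.3%) and 5 lower (3.38% against 3.19%), while 48 did not overlap (32.4%, against 27.8%) and 2 differed by over 2-fold (1.35%, against 3.26%). Without fat array 44 the number called was 25, 7 higher (4.73%, against 6.13% of all genes) and 18 lower (12.2% against 6.73%). Without VMG 17, 27, 28 or 29 it was 2, without VMG 13 it was 6 and without fat array 45 it was 5, and with all groups in 1 fit it was 48. The counts of the last sentence stand without the share of all genes and are not read as particular to Slc genes. Slc2a5 was at 2.16, 2.46 and 3.07 in fat and 0.08, 0.20, 0.70, 0.77 and 0.82 in VMG, fully apart (log2 difference 2.05 ± 0.27 SE, adjusted p = 0.00694). The other members higher in fat were Slc22a15 (0.89 ± 0.18 SE, adjusted p = 0.0328), Slc23a4 (0.64 ± 0.16 SE, adjusted p = 0.05, just under the threshold), the UDP-galactose carrier Slc35a2 (0.62 ± 0.12 SE, adjusted p = 0.0286) and Slc27a3 of the fatty acid carriers (0.50 ± 0.10 SE, adjusted p = 0.0284). Adipocyte markers were higher in fat, 11 of 17 (median 0.95), whereas 6 of 9 skeletal muscle markers (median -2.52) and 3 of 8 luminal epithelial markers (median -2.47) were lower. Their part in the Slc results was not tested. Lower in fat were Slc6a18 (-1.67 ± 0.17 SE, adjusted p = 0.00306), the phosphate carrier Slc20a2 (-0.84 ± 0.18 SE, adjusted p = 0.0349) and, of the mitochondrial family, Slc25a11 (-0.73 ± 0.15 SE, adjusted p = 0.0305), Slc25a36 (-0.69 ± 0.15 SE, adjusted p = 0.0347) and Slc25a46 (-0.56 ± 0.12 SE, adjusted p = 0.0333).

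Against the 35 tumors together, fat differed in 87 members (58.8%, against 54.2% of all genes), 38 higher (25.7% against 21.2%) and 49 lower (33.1% against 33%), and 26 (17.6%, against 21.6%) did not overlap. Over 2-fold differences numbered 43 (29.1%, against 28.1%). Without array 44, 51 were called, 30 higher (20.3%, against 18.4% of all genes) and 21 lower (14.2% against 18.8%). All 17 adipocyte markers were higher in fat (median 3.92) and 6 of 8 luminal epithelial markers lower (median -2.77). Slc2a5 was higher by 3.15 ± 0.48 (SE, adjusted p = 7.22e-07). Slc1a5 was at 2.06, 2.19 and 2.43 in fat, against -0.69 to -0.16 (median -0.36) in the tumors (log2 difference 2.63 ± 0.10 SE, adjusted p = 7.57e-23). Slc24a3 was at 0.91, 1.49 and 2.18 in fat, against -2.19 to 0.16 (median -0.78) in the tumors (log2 difference 2.24 ± 0.31 SE, adjusted p = 1.35e-07). Slc7a10, the neutral amino acid carrier Asc-1 known from white fat cells, was at 1.37, 1.60 and 1.68 in fat, against -0.90 to 0.34 (median -0.13) in the tumors (log2 difference 1.71 ± 0.15 SE, adjusted p = 7.12e-12), and Slc28a2, a sodium-coupled purine nucleoside carrier, at 0.72, 0.85 and 0.95 in fat, against -1.36 to -0.09 (median -0.37) in the tumors (log2 difference 1.33 ± 0.19 SE, adjusted p = 3.02e-07). Slc27a1, the fatty acid transport protein FATP1, was at 0.59, 0.81 and 0.98 in fat, against -0.67 to 0.13 (median -0.15) in the tumors (log2 difference 0.96 ± 0.10 SE, adjusted p = 2.37e-10). None of these genes had a tumor within the range of fat. The greatest differences below the tumors rested in size on array 44: Slc45a3 was at -9.20, -3.87 and -2.55 in fat, Slc5a1 at -8.29, -2.18 and -2.11 and Slc25a13 at -8.90, -2.30 and -2.16, where the lowest value of each is that array. For these 3 the other fat arrays also lay below every tumor. The log2 difference was -4.82 ± 0.56 (SE, adjusted p = 3.09e-09) for Slc45a3, a sugar carrier known from prostate, -4.10 ± 0.55 (SE, adjusted p = 6.37e-08) for Slc5a1 and -4.04 ± 0.56 (SE, adjusted p = 1.5e-07) for Slc25a13, and without array 44 it was -2.82, -2.05 and -1.82, all still called. Slc22a30 (-3.10) and Slc15a4, a lysosomal carrier of histidine and peptides (-3.08), were lower as well, but without array 44 the differences were -0.75 (adjusted p = 0.00443) and -0.52 (adjusted p = 0.148).

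**Figure D4:**
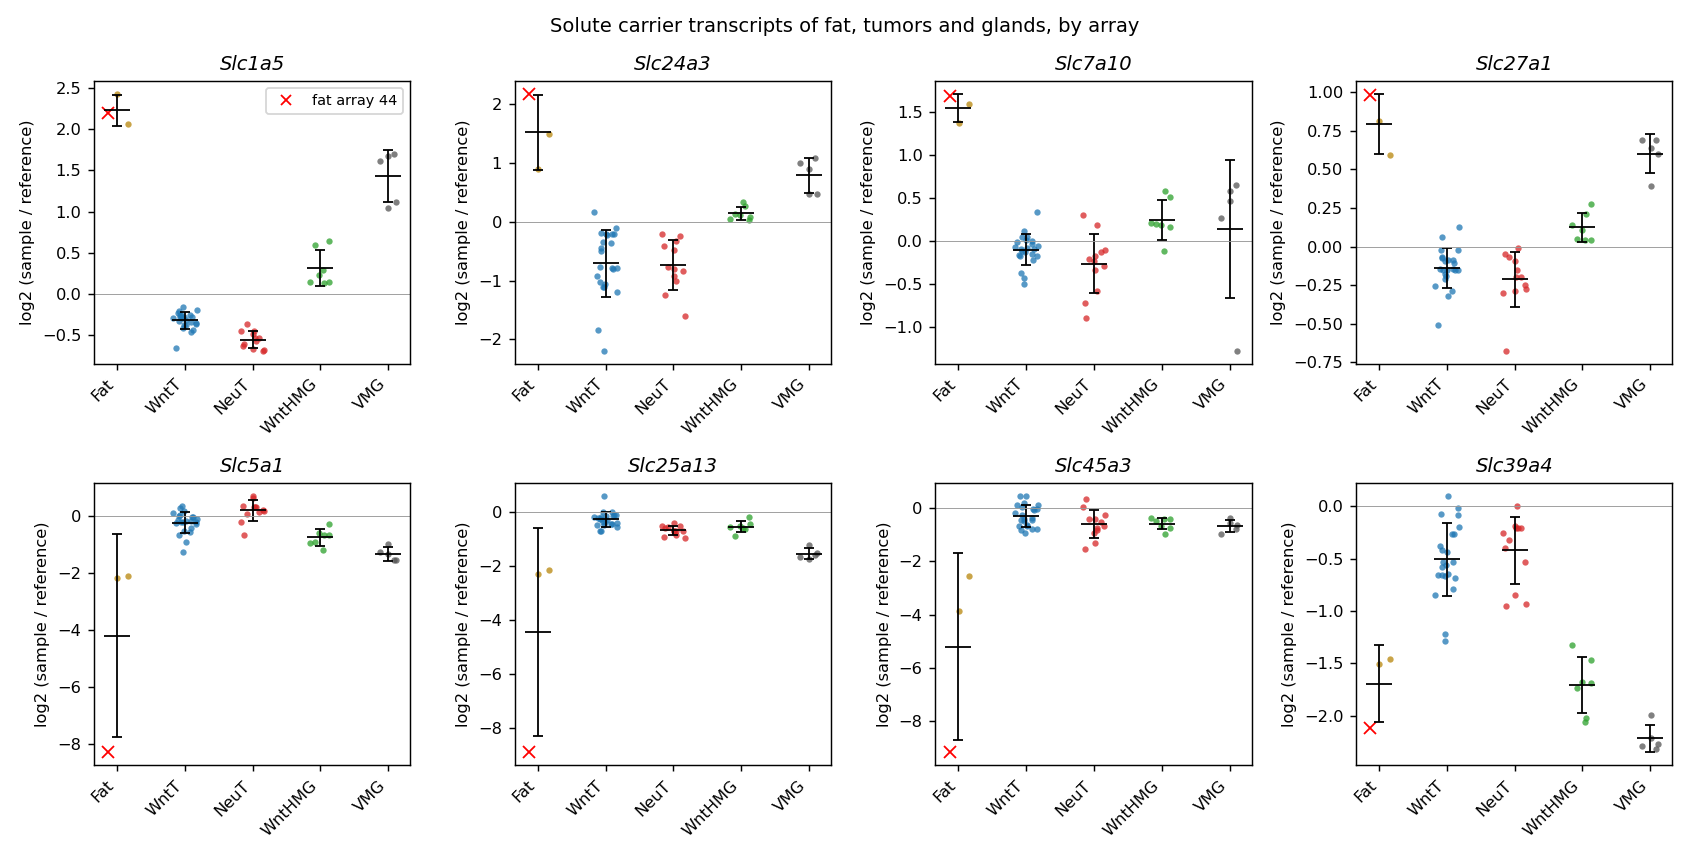
Log2 ratio to the pooled reference (vertical axes) of 8 Slc genes in fat, tumors and glands (horizontal axes), with 1 point per array, bars for the mean and SD and a cross for fat array 44. Slc1a5, Slc24a3 and Slc27a1 are highest in fat and VMG and low in both tumor groups, Slc39a4 is low in VMG, and the cross sets the spread of fat for Slc5a1, Slc25a13 and Slc45a3.

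Across the 23 WntT arrays the median SD of a member was 0.32, and 12 members had an SD above 1. The widest was Slc2a2, at -9.12 to -1.56 (median -2.84), far below the reference, where the deposited ratios are small and coarsely rounded. Over the other groups the median SD was 0.27 in NeuT, 0.23 in WntHMG and 0.21 in VMG. Over the 10 comparisons 14 members were never called, and 42 were called in 5 or more. Slc7a1 was called most often, in 7. The comparisons share arrays, so repeated calls of a gene are not independent. These counts, and that of SDs above 1, stand without the share of all genes. They are not read as particular to Slc genes. The never-called members included the iron exporter Slc40a1, the Golgi zinc carrier Slc30a7 and the potassium/chloride cotransporter Slc12a4.

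**Figure D5:**
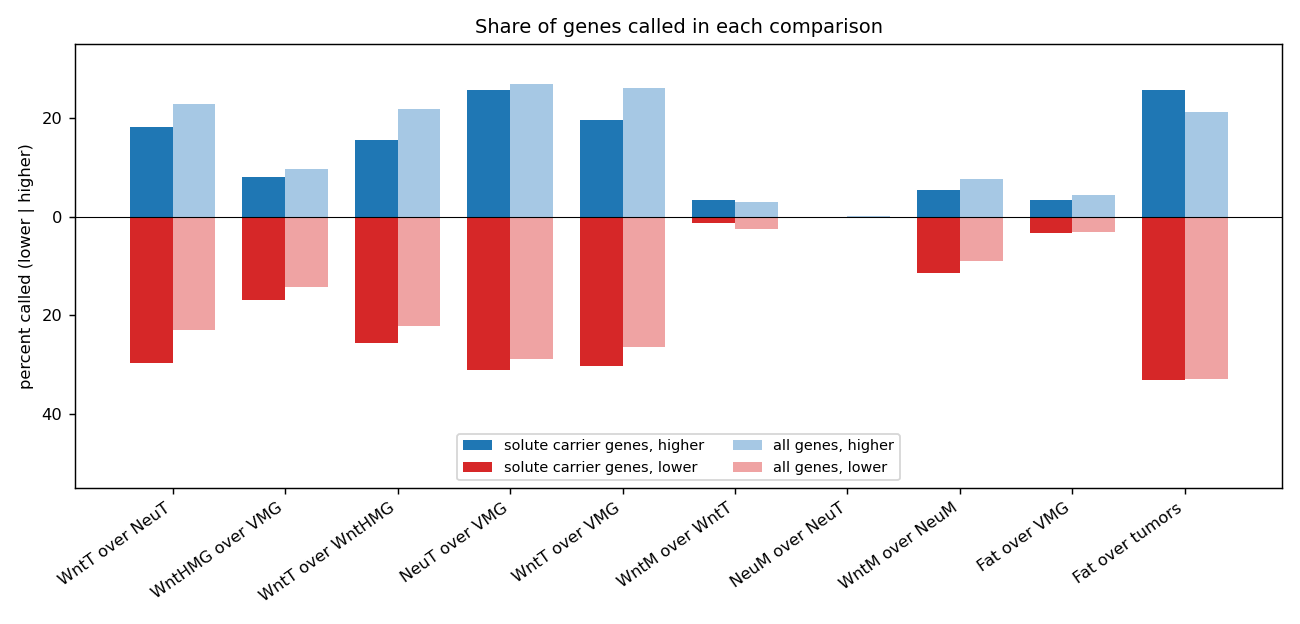
Percent of genes called in each comparison (horizontal axis), with calls higher in the first-named group above 0 and lower calls below it (vertical axis), for the 148 Slc genes (dark bars) and all 7766 genes (pale bars). For example, 29.7% of Slc genes and 23% of all genes were lower in WntT than in NeuT, and 15.5% and 21.9% were higher in WntT than in WntHMG. The shares of Slc genes called in either direction run from 0 between NeuM and NeuT to 58.8% between fat and tumors.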

How the data were processed

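RNA from whole tissues was labelled with Cy5 and hybridized with a Cy3-labelled pooled reference to 15k cDNA arrays, 65 of which were used. The authors deposited log2 ratios of sample to reference, already normalized. Of 998400 values 8 were missing, and 3031 ratios were under 0.01 (86 of them in members), where the deposited values fall on a coarse grid. Arrays of an 8.7k design were not used here. Of the clones, 11860 have a single symbol in the platform annotation, 705 several and 2795 none. Clones of a gene were averaged, giving 7766 genes.

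Groups were compared with limma 3.58.1 in R 4.3.3 (lmFit and eBayes), fitting only the groups compared, with Benjamini-Hochberg adjustment over all genes and a threshold of 0.05. The scripts were tested on simulated data. Genes were named by rule: from each comparison the 5 called genes with the greatest increase and the 5 with the greatest decrease, and the 3 of smallest adjusted p in each substrate group. The rule also took genes with clones called in opposite directions between WntT and NeuT, of which there were 0. For the other comparisons such genes are counted above, and only those between NeuT and VMG are named as such. Some others were named because their ranges did not overlap, because they encode relatives of a named gene, or as examples, once their values were known. The members and lists were chosen with earlier results of these data known. Alternatives covered scaling, clone averaging, extreme ratios, the groups fitted, leaving out arrays, a replicate block and a permutation t-test (at most 100 regroupings, pooled over genes, where the study's methods draw many more and give each gene its own P). The number of arrays limits the precision.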

Additional observations from a re-analysis of the deposited data

Results flagged for a closer look

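Within VMG, WntHMG and WntM the array farthest from the rest of its group was tested for each Slc gene named in the report by its gap to the nearest array over the whole range of the group (Dixon's 95% limit). Of 222 pairs of gene and group 26 stood out, where chance gives about 1 in 20. The array WntM 18 had a log2 ratio of -0.43 for Slc7a1 (other arrays 0.37 to 1.16). The array WntM 19 had a log2 ratio of -8.59 for Slc16a12 (other arrays -2.63 to -1.83) and -3.20 for Slc8a1 (other arrays -1.55 to -0.29). The array WntM 49 had a log2 ratio of -9.04 for Slc2a2 (other arrays -5.38 to -3.02). The array WntM 50 had a log2 ratio of -4.02 for Slc25a34 (other arrays -1.41 to 0.39), -1.27 for Slc25a36 (other arrays 0.02 to 0.38), -0.65 for Slc27a1 (other arrays -0.25 to 0.15) and -0.64 for Slc39a10 (other arrays 0.71 to 1.43). The array WntM 52 had a log2 ratio of -0.55 for Slc12a8 (other arrays -0.19 to 0.21), -2.27 for Slc1a5 (other arrays -0.57 to -0.01), -1.30 for Slc22a30 (other arrays -0.26 to 0.51), -6.98 for Slc27a2 (other arrays -6.02 to -5.15), -1.33 for Slc4a1ap (other arrays -0.23 to 0.80) and -6.14 for Slc6a19os (other arrays -2.10 to 0.56). The spread of Slc1a5 over WntM lay in clone 1 (SD 2.0, against 0.17 in clone 2 and 0.11 in clone 3). The array WntM 62 had a log2 ratio of 1.66 for Slc44a3 (other arrays 0.66 to 1.09). The array WntHMG 11 had a log2 ratio of -1.02 for Slc46a3 (other arrays -0.39 to -0.22) and -2.31 for Slc8a1 (other arrays -1.41 to -0.80). The array WntHMG 14 had a log2 ratio of 0.48 for Slc31a2 (other arrays 0.02 to 0.19) and 0.75 for Slc4a1ap (other arrays 0.04 to 0.28). The array VMG 13 had a log2 ratio of -0.15 for Slc12a4 (other arrays 0.03 to 0.09), -0.75 for Slc16a12 (other arrays -1.72 to -1.53), -2.32 for Slc2a2 (other arrays -1.35 to -1.04) and -1.28 for Slc7a10 (other arrays 0.26 to 0.65). The array VMG 28 had a log2 ratio of -2.48 for Slc17a3 (other arrays -1.90 to -1.79). The array VMG 29 had a log2 ratio of -1.09 for Slc34a2 (other arrays -0.15 to 0.07) and -2.46 for Slc4a5 (other arrays -1.26 to -0.83). The arrays WntM 19, 50 and 52 also had the widest spread over all clones in their group (SD 1.31 to 1.47), and the part of this spread in the values was not tested.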

How the results depend on the processing

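Counts of members called moved by more than 1.5 times from the values of the report under the following settings. With all groups in 1 fit the count was 19 between WntHMG and VMG, 1 between NeuM and NeuT and 48 between fat and VMG. This fit pools the spread of all groups, the fat arrays included. With each clone fitted by itself, and all clones of a gene required to be called alike, it was 3 between WntM and WntT. A permutation t-test at P under 0.001 follows the study's methods in its statistic and threshold but pools fewer regroupings over genes. Its counts follow with the share of all genes called in brackets. They were 13 between WntHMG and VMG (10.8%), 34 between WntT and WntHMG (27.9%), 51 between NeuT and VMG (32.1%) and 49 between WntT and VMG (36.3%). There were 4 between WntM and WntT (4.08%), 11 between WntM and NeuM (8.26%), 3 between fat and VMG (3.27%) and 31 between fat and tumors (24.9%). Other counts in this paragraph stand without the share of all genes and are not read as particular to Slc genes. Quantile normalization gave 16 between fat and VMG, and setting ratios below 0.01 or above 100 to missing gave 26. Without arrays of SD over 1.3 the count was 1 between WntM and WntT and 25 between fat and VMG. Adding the tail-vein metastases gave 39 between WntM and NeuM. Leaving out 1 array at a time, whether or not the count moved by that much, gave 51 to 91 between fat and tumors, 5 to 25 (fat arrays) and 2 to 6 (VMG arrays) between fat and VMG, 74 to 83 between NeuT and VMG, 25 to 42 between WntHMG and VMG, 64 to 70 between WntT and VMG, 14 to 20 between WntM and NeuM, and 0 to 1 both between NeuM and NeuT and for the difference between the metastasis contrasts, where NeuM 53 was the array concerned. The split of calls changed under quantile normalization to 33 higher and 34 lower between WntT and WntHMG, against 23 and 38 in the report, and to 37 and 31 between fat and tumors, against 38 and 49. A change of sign was seen in 2 genes: Slc25a1 between WntM and NeuM was 0.01 with the median of its clones, and Slc38a4 between fat and tumors was 0.01 with extreme ratios missing, 0.00 without arrays of SD over 1.3 and -3.30 to 0.01 without 1 fat array (0.01 without array 44), against -2.15. Causes were not tested.

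Some metastases and tumors share a number in their titles. With that number as a replicate block, 0 members were called between WntM and WntT and 0 between NeuM and NeuT, and the same arrays without the block, an alternative chosen after seeing the data, also gave 0 in both. The share of all genes is not given beside these counts. Deviations of same-numbered arrays correlated at -0.05 to 0.30 over 7 pairs for Wnt-1 and -0.01 to 0.10 over 3 pairs for Neu. The correlation was above the median for other arrays for numbers 38, 42, 49, 50, 62, 56 and 61. It was below that median for numbers 36, 47 and 53. Such correlations cannot tell whether a number marks a single mouse, since tumor and metastasis of a mouse need not deviate alike. The labels do not say what the numbers mean, so they were not used as pairs in the report. Ratios below 0.01 limit what can be read at the low end.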
